A study of Mus musculus with 6 samples.

Results

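The genes described here are Stab2, its relative Stab1 and 7 further genes of the macrophages that line brain vessels and meninges, Mrc1, Lyve1, Cd163, F13a1, Pf4, Cbr2 and Ms4a7. They are 9 of the 38087 genes in the deposited table, and each was found as the single row with that gene symbol. Stab2 was selected on its counts in these same 6 libraries, which did not overlap between the genotypes, so its values are given as a description with no test. The other 8 genes were set beside it to ask whether scavenger receptors and perivascular macrophage genes differed between the genotypes in the same direction.

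RNA was sequenced from frozen cerebrum of 3 wild-type (WT) and 3 Sgo1-/+ mice. The mice were labelled as strain C57BL6 and described in the study's methods as C57BL/6-based. By these methods the tissue held cortex and hippocampus, but not olfactory bulb, cerebellum or medulla. The Sgo1-/+ mice were haploinsufficient for Sgo1 (Shugoshin-1), which protects the cohesion of sister chromatids, and no promoter, Cre or cell type limits the allele in the labels. All 6 mice were 24 months old and untreated, with 1 library per mouse. WT replicate 1 and Sgo1-/+ replicate 2 were male and the other mice female. Run 258 held all WT and run 259 all Sgo1-/+ libraries, and differences between genotypes and between runs cannot be told apart.

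Perivascular and meningeal macrophages sit at the borders of the brain, in the spaces around vessels and in the membranes that cover it, and take up debris, modified lipoproteins, glycoproteins and haem complexes with scavenger receptors. Stabilin-1 and stabilin-2, the products of Stab1 and Stab2, are large related receptors of this kind. Stabilin-2 is best known from the sinusoidal endothelium of liver, spleen and lymph node, where it clears hyaluronan, while stabilin-1 is widely used as a marker of tissue macrophages.

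The libraries held between 11123917 and 12505561 estimated counts. Values below are normalized counts, which are estimated counts scaled to a common library size of 12071061, and levels are compared between genes only per kilobase of annotated exons. WT replicate 1 stood somewhat apart, with a mean Pearson's r across genes of 0.941 with the remaining libraries, where these had 0.971 to 0.974. Sgo1 itself was too sparse to check the labels, with normalized counts of 0, 6.67 and 0 in WT and 3.97, 2.03 and 0 in Sgo1-/+. With edgeR's quasi-likelihood test and Benjamini-Hochberg adjustment, 0 of 16337 genes had an adjusted p under 0.05 (0% called), while DESeq2's Wald test called 3 genes and edgeR's likelihood ratio test 2. In the same test 333 genes (2.04%) had an unadjusted p under 0.05, with 132 (0.808%) above and 201 (1.23%) below WT. The groups did not overlap for 1119 genes (6.85%), 536 (3.28%) with all Sgo1-/+ libraries above all WT libraries and 583 (3.57%) with all below. These shares over the tested genes are the background for each list below.

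Stab2 (ENSMUSG00000035459, chromosome 10 from 86841198 to 87008025, minus strand, mm10) had normalized counts of 4.03, 6.32 and 5.30 in WT replicates 1 to 3. The Sgo1-/+ replicates 1 to 3 had 18.9, 20.2 and 16.9. The lowest Sgo1-/+ library was above the highest WT library, which is what Stab2 was picked for. The means were 5.22 ± 1.15 in WT and 18.7 ± 1.67 in Sgo1-/+ (SD, n = 3 each), a 3.58-fold higher mean in Sgo1-/+, and the fitted log2 fold change was 1.79 with a standard error (SE) of 0.36. With each library left out in turn, this value lay between 1.63 (without WT replicate 1) and 1.99 (without WT replicate 2). Of the 16337 genes, 37 (0.226%) were at least 2-fold higher in Sgo1-/+ with groups that did not overlap. Stab2 was picked for that separation, so its place among these genes is no support for a difference. Among the 1824 tested genes with a mean normalized count within 2-fold of that of Stab2, the groups did not overlap for 156 (8.55%), and 75 of these were higher in Sgo1-/+. In bulk tissue, a different number of cells of a type and a different amount of RNA per cell cannot be told apart.

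The counts behind these values were few. Stab2 had estimated counts of 4, 6.64 and 5.22 in WT and 19.1, 19.9 and 16.5 in Sgo1-/+. Most of the whole-number counts from 1 to 20 in a library were even (63.5 to 69.1%), and 976 to 1021 genes per library stood at 2 against 510 to 657 at 1, so counting error was taken from pair counts, the estimated count divided by 2 and rounded, as if both reads of each pair had been counted. Stab2 had pair counts of 2, 3 and 3 in the WT libraries and 10, 10 and 8 in the Sgo1-/+ libraries. The sums were 8 in WT (95% exact Poisson interval 3.45 to 15.8) and 28 in Sgo1-/+ (18.6 to 40.5). These intervals cover counting error only and leave out variation between mice. Without molecular identifiers, copies made by PCR are counted as separate reads, which these intervals also leave out.

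**Figure D1:**
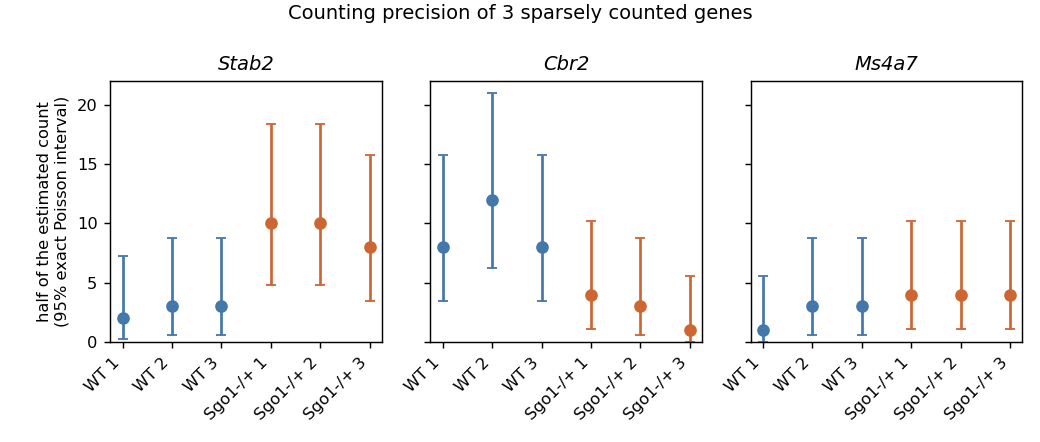
Pair counts (the estimated count divided by 2) of Stab2, Cbr2 and Ms4a7 in each library (y axis, rounded), with bars for the 95% exact Poisson interval. Points are blue for WT and orange for Sgo1-/+; Stab2 stood at 2 to 3 in WT and 8 to 10 in Sgo1-/+, Cbr2 at 8 to 12 and 1 to 4, and Ms4a7 at 1 to 3 and 4, and bars overlapped between the groups for all pairs of libraries but WT replicate 2 and Sgo1-/+ replicate 3 of Cbr2.

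The annotated exons of Stab2 cover 8757 bases in 72 blocks, and 141 of these bases also belong to Gm16268, an antisense gene on the plus strand. Since the library kit does not mark the strand and the counting is not described, reads in these bases cannot be told apart between the 2 genes. Gm16268 had 5.24, 0.813 and 4.06 normalized counts in WT and 1.99, 5.41 and 4.25 in Sgo1-/+. Its groups overlapped, with means of 3.37 and 3.88. For Stab1, 112 exon bases are shared with Nt5dc2 on the opposite strand, a gene whose groups also overlapped (57.3 ± 18.6 in WT and 40.1 ± 23.6 in Sgo1-/+, SD, n = 3 each).

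Stab1 (ENSMUSG00000042286, chromosome 14 from 31139013 to 31168641, minus strand), the closest relative of Stab2, did not have this separation. Its normalized counts were 181, 271 and 235 in WT and 254, 204 and 205 in Sgo1-/+. Every Sgo1-/+ library lay inside the WT range. The means were 229 ± 45.4 and 221 ± 28.9 (SD, n = 3 each), with a log2 fold change of -0.05 (SE 0.19, 95% interval -0.51 to 0.40, unadjusted p = 0.783 and adjusted p = 0.9999 by edgeR's quasi-likelihood test; exact two-sided permutation p = 0.9). Per kilobase of exon, Stab1 had the highest level of the 9 genes (21.9 normalized counts per kilobase, mean of 6 libraries) and Stab2 the lowest (1.36), and in Sgo1-/+ Stab2 stood at 2.13 against 21.5 for Stab1.

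The RefSeq sequences just upstream of the annotated starts of Stab1 and Stab2 (GRCm38.p6, minus strand, 5′ to 3′) are shown because the levels of these related genes differed; capitals mark the longest run of bases that both share.
Stab1, chr14:31168642-31168891: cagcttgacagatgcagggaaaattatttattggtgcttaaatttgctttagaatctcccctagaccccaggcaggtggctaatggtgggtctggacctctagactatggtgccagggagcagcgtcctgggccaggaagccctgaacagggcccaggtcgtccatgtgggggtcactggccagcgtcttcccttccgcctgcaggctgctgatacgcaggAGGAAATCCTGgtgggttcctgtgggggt
Stab2, chr10:87008026-87008192: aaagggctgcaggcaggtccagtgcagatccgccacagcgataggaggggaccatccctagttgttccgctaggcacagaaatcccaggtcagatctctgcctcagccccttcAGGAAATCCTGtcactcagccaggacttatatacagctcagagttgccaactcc
The shared run is 11 bases, AGGAAATCCTG, present once in each. It lies 29 to 19 bases before the end of the printed Stab1 sequence and 54 to 44 bases before the end of that of Stab2. On either strand it occurs in 14 of 32851 mouse promoter windows in RefSeq (0.0426%), and among the 8 set genes with a window in only these, Lyve1 having none here. The run was chosen because Stab1 and Stab2 both hold it, so its presence in their windows was fixed in advance. The motif GAGGAAGT, a purine-rich site of the kind bound by the myeloid factor encoded by Spi1, was found in 1052 windows (3.20%), those of F13a1 and Pf4 among the 8. These matches describe letters in a window, and no binding was measured.

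The other endocytic receptors also had groups that overlapped. Mrc1 (ENSMUSG00000026712, chromosome 2 from 14229414 to 14332057, plus strand), the mannose receptor that takes up glycoproteins, had normalized counts of 57.9, 81.1 and 54.8 in WT and 77.3, 45.7 and 37.5 in Sgo1-/+. Replicates 2 and 3 of Sgo1-/+ lay below all WT libraries and replicate 1 close to the highest of them. The log2 fold change of Mrc1 was -0.26 (SE 0.34, 95% interval -1.06 to 0.53, unadjusted p = 0.460 and adjusted p = 0.9999 by edgeR's quasi-likelihood test; exact permutation p = 0.5). Without Sgo1-/+ replicate 1 it was -0.62 and the groups no longer overlapped.

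Lyve1 (ENSMUSG00000030787, chromosome 7 from 110850607 to 110862953, minus strand), a hyaluronan receptor of lymphatic endothelium and of perivascular macrophages, had normalized counts of 14.1, 28.6 and 8.12 in WT and 19.1, 2.03 and 6.65 in Sgo1-/+. Like Mrc1, it was high in WT replicate 2 and Sgo1-/+ replicate 1 and low in Sgo1-/+ replicates 2 and 3. Its log2 fold change was -0.90 (SE 0.78, unadjusted p = 0.289 and adjusted p = 0.9999 by edgeR's quasi-likelihood test; exact permutation p = 0.4). Leaving out WT replicate 2 gave -0.29 and leaving out Sgo1-/+ replicate 1 gave -2.02, with groups that did not overlap in the latter.

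Cd163 (ENSMUSG00000008845, chromosome 6 from 124304651 to 124330527, plus strand), the receptor for haemoglobin bound to haptoglobin, had normalized counts of 12.8, 48.2 and 48.1 in WT and 55.8, 24.0 and 43.3 in Sgo1-/+. WT replicate 1 stood lowest, below Sgo1-/+ replicate 2. The log2 fold change was 0.17 (SE 0.54, 95% interval -1.11 to 1.44, unadjusted p = 0.764 and adjusted p = 0.9999 by edgeR's quasi-likelihood test; exact permutation p = 0.7), and it turned to -0.23 without WT replicate 1 and to -0.12 without Sgo1-/+ replicate 1.

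The secreted factors had lower means in Sgo1-/+, with groups that overlapped. F13a1 (ENSMUSG00000039109, chromosome 13 from 36867178 to 37050244, minus strand), the catalytic subunit of the fibrin-crosslinking coagulation factor XIII, had normalized counts of 34.2, 57.1 and 23.3 in WT and 28.3, 14.2 and 14.3 in Sgo1-/+. Sgo1-/+ replicate 1 lay above WT replicate 3, and the other Sgo1-/+ libraries lay below all WT libraries. The log2 fold change was -1.02 (SE 0.46, 95% interval -2.10 to 0.06, unadjusted p = 0.0601 and adjusted p = 0.9999 by edgeR's quasi-likelihood test; exact permutation p = 0.2), and it moved to -1.42 without Sgo1-/+ replicate 1 and to -0.61 without WT replicate 2. The groups did not overlap without WT replicate 3 or without Sgo1-/+ replicate 1. F13a1 shares 74 exon bases with the antisense gene Gm30489, which was not analysed here.

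Pf4 (ENSMUSG00000029373, chromosome 5 from 90772435 to 90773381, plus strand), the platelet and macrophage chemokine CXCL4, had normalized counts of 11.1, 5.71 and 4.57 in WT and 5.96, 6.08 and 4.09 in Sgo1-/+. The 2 groups differed mainly through WT replicate 1. Pf4 was removed by the filter on low counts. Fitted without that filter, it had a log2 fold change of -0.37 (SE 0.63, unadjusted p = 0.573 and adjusted p = 0.9885 by edgeR's quasi-likelihood test; exact permutation p = 0.6). Without WT replicate 1 the sign turned, to 0.13. Ppbp, a further platelet chemokine, was listed at 0, 11.4 and 4.06 in WT and 17.9, 1.01 and 0 in Sgo1-/+, so its highest library was not that of Pf4.

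Cbr2 (ENSMUSG00000025150, chromosome 11 from 120729489 to 120732114, minus strand), a carbonyl reductase used as a marker of perivascular and other resident macrophages, had the opposite pattern to Stab2. Its normalized counts were 16.2, 23.7 and 16.2 in WT and 7.95, 5.96 and 2.05 in Sgo1-/+. The highest Sgo1-/+ library had less than the lowest WT library. The means were 18.7 ± 4.34 and 5.32 ± 3.00 (SD, n = 3 each), 3.52-fold higher in WT. The log2 fold change was -1.78 (SE 0.50, 95% interval -2.96 to -0.60, unadjusted p = 0.00934 by edgeR's quasi-likelihood test). Adjusted over all tested genes by the Benjamini-Hochberg method, the edgeR p was 0.9999, so Cbr2 did not pass. The exact permutation p was 0.1, the smallest that 3 against 3 libraries allow. Leaving out single libraries gave values from -2.17 to -1.40. Cbr2 passed the filter on low counts through its WT libraries alone, and with the filter off its unadjusted p was 0.0106 in the same edgeR test. As pair counts Cbr2 had 8, 12 and 8 in WT and 4, 3 and 1 in Sgo1-/+. The sums were 29 (95% exact Poisson interval 19.4 to 41.6) and 8 (3.45 to 15.8). At least 2-fold lower in Sgo1-/+ with groups that did not overlap were 60 of 16337 genes (0.367%), Cbr2 among them.

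Ms4a7 (ENSMUSG00000024672, chromosome 19 from 11321039 to 11336146, minus strand), a tetraspanning membrane protein of border macrophages and monocyte-derived cells, had normalized counts of 2.01, 5.71 and 6.09 in WT and 7.95, 8.11 and 8.19 in Sgo1-/+. It was the only one of the other 8 genes with all Sgo1-/+ libraries above all WT libraries. The counts behind this were 2, 6 and 6 in WT and 8 in each Sgo1-/+ library. As pair counts, the sums were 7 (95% exact Poisson interval 2.81 to 14.4) and 12 (6.2 to 21), and these intervals overlapped. Ms4a7 did not pass the filter on low counts. Without that filter, its log2 fold change was 0.79 (SE 0.61, unadjusted p = 0.227 and adjusted p = 0.9499 by edgeR's quasi-likelihood test; exact permutation p = 0.1, the smallest possible). It was 0.45 without WT replicate 1.

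**Figure D2:**
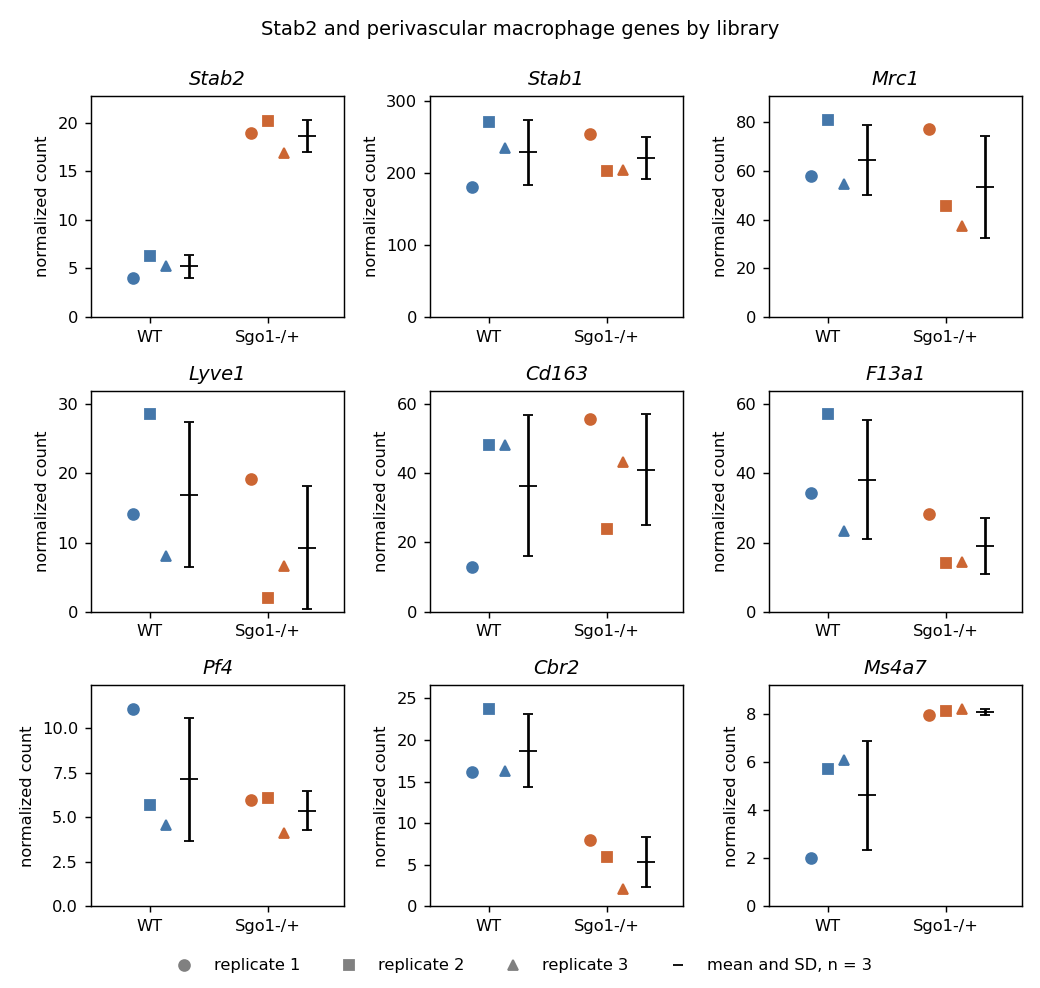
Normalized counts (y axis, each from 0) of the 9 genes in the 3 WT (blue) and 3 Sgo1-/+ (orange) libraries; the symbol gives the replicate number, and the black mark with bars gives the mean and SD (n = 3). Stab2 and Ms4a7 stood higher in all Sgo1-/+ libraries and Cbr2 lower, while the groups of the other 6 genes overlapped.

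Counted with the filter on low counts off, so that every gene of the set enters, 2 of the 8 genes other than Stab2 had a positive and 6 a negative log2 fold change, with a median of -0.32. In the table as a whole, 49.8% of the tested genes had a positive value. The groups did not overlap for 1 of the 8 in each direction, Ms4a7 and Cbr2. Over the tested genes, all with the filter on, the shares were 3.28% higher and 3.57% lower. With the filter on, 7 of the 9 genes were tested, and an adjusted p under 0.05 was found for 0 of the 6 that remain beside Stab2, with edgeR, DESeq2 and limma alike. With the filter off, Cbr2 alone of the 8 had an unadjusted p under 0.05 in edgeR's quasi-likelihood test, beside 563 of 26061 genes. Stab2 passed the filter through its Sgo1-/+ libraries alone.

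The libraries that were high or low were in part the same for several genes. WT replicate 2 held the highest WT value of Stab1, Stab2, Mrc1, Lyve1, Cd163, F13a1 and Cbr2. Sgo1-/+ replicate 1 held the highest Sgo1-/+ value of Stab1, Mrc1, Lyve1, Cd163, F13a1 and Cbr2, but not of Stab2. Neutrophil genes were also highest in WT replicate 2 (S100a8 at 204 and S100a9 at 329 there), and through them the sum over the 14 blood leukocyte markers in the table was 761 there against 62.4 to 210 in the other 5 libraries. Most other markers of that list were highest in Sgo1-/+ replicate 1, such as the B cell genes Cd79a (24.0) and Ms4a1 (28.9). Red cell genes were highest in Sgo1-/+ replicate 1, with a sum of 8751 over 4 genes against 716 to 2826 elsewhere. The part of blood left in the vessels in these values was not tested.

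Per kilobase of exon, the order of the levels as means over all 6 libraries was Stab1, Mrc1, Cbr2, Pf4, Cd163, Lyve1, F13a1, Ms4a7 and Stab2. Mrc1 (9.27), Cbr2 (9.06), Pf4 (8.67) and Cd163 (7.09) stood close together, and Lyve1 (4.49) and F13a1 (4.24) formed a lower pair. Only at 2 steps of this order were neighbours apart in their library ranges: Stab1 above Mrc1, and F13a1 above Ms4a7 (1.42). Ms4a7 and Stab2 overlapped. The order was not that of each genotype: Cbr2 stood at 14.1 in WT, above Mrc1 at 10.1, and at 4.01 in Sgo1-/+, below Pf4 and Cd163, and in Sgo1-/+ Stab2 (2.13) stood above Ms4a7 (1.81).

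The other scavenger receptors were more often below than above WT. Of 26 further receptors, 18 were tested, 5 with a positive and 13 with a negative log2 fold change, and an adjusted p under 0.05 was found for 0 with edgeR's quasi-likelihood test, an unadjusted one for 2, both lower in Sgo1-/+. The median was -0.29, beside -0.0007 over all tested genes. For 0 of the 18 did all Sgo1-/+ libraries lie above all WT libraries, and for 4 they lay below (background 3.28% and 3.57%). The highest value among the 18 was that of Scara3, 0.41. When single libraries were left out, the count higher without overlap stayed at 0. The count lower reached 8 without Sgo1-/+ replicate 1, where fewer libraries have to be apart. The median lay between -0.39 (without WT replicate 3) and -0.13 (without WT replicate 1). With the filter off, as for the set genes, 10 of the 26 were positive and 16 negative, with a median of -0.23. Of these 26, the groups did not overlap for 0 higher and 4 lower. The sparse Cd5l then had the value 2.62 (SE 1.56), above that of Scara3.

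The 4 receptors below WT were Mrc2, Ssc5d, Cxcl16 and Scara5. Mrc2, the collagen-binding relative of Mrc1 that fibroblasts also make, had normalized counts of 134, 111 and 124 in WT and 74.5, 28.3 and 60.6 in Sgo1-/+, with no overlap. Its log2 fold change was -1.17 (SE 0.35, unadjusted p = 0.0120 and adjusted p = 0.9999 by edgeR's quasi-likelihood test). Ssc5d, a soluble receptor with scavenger receptor domains, had 30.5, 48.6 and 26.3 in WT and 9.93, 22.3 and 16.8 in Sgo1-/+, again without overlap (log2 fold change -1.11, SE 0.41, unadjusted p = 0.0309 and adjusted p = 0.9999 by edgeR's quasi-likelihood test). Without WT replicate 2 the value of Ssc5d was -0.80. Cxcl16, a membrane chemokine that also binds oxidised lipoprotein, stood at -0.63 (SE 0.30) on the log2 scale and Scara5, a ferritin receptor, at -0.71 (SE 0.39), each with an unadjusted p above 0.05. Scara5 passed the filter on low counts mainly through WT, at 20.1, 13.3 and 13.2 normalized counts against 6.95, 9.12 and 12.3 in Sgo1-/+.

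The values of the other receptors lay on both sides of 0. Lrp1, a large receptor for lipoproteins and protease complexes and the most abundant of the list, had 6422, 5566 and 6705 in WT and 6230, 6439 and 6178 in Sgo1-/+, which gave 0.01 (SE 0.12) on the log2 scale. Cd68, a lysosomal glycoprotein of macrophages and microglia, had 0.14 (SE 0.22), Mertk, which takes up apoptotic cells, 0.20 (SE 0.29), and Scarb1, the receptor for high-density lipoprotein, 0.08 (SE 0.23). Cd36, for fatty acids and oxidised lipoprotein, had -0.31 (SE 0.36) and Colec12 -0.39 (SE 0.23). The classical macrophage receptors Msr1 and Marco were too sparse to be tested, with at most 11.7 and 7.95 normalized counts in any library.

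**Figure D3:**
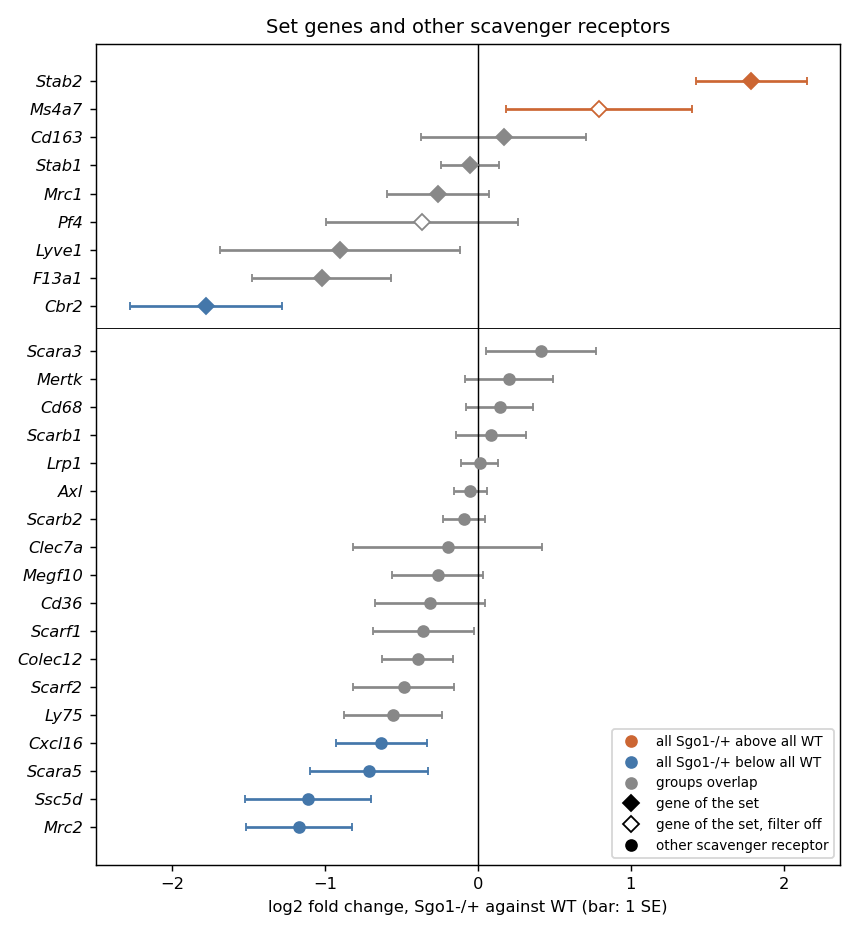
Log2 fold change of Sgo1-/+ against WT (x axis) with 1 SE, for the 9 genes (diamonds, open where fitted with the filter on low counts off) and the 18 other tested scavenger receptors (circles). Orange marks genes with all Sgo1-/+ libraries above all WT libraries and blue those with all below; Stab2 at 1.79 and Ms4a7 at 0.79 are orange, Cbr2 at -1.78 and the 4 receptors from -0.63 to -1.17 are blue.

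Stabilin-2 and Lyve1 bind hyaluronan, a long sugar polymer of the matrix, and genes of its synthesis, breakdown and binding were listed. Of 26 in the table, 23 were tested, 6 with a positive and 17 with a negative log2 fold change, with a median of -0.10. Has3, a hyaluronan synthase, had 63.6, 70.6 and 81.6 normalized counts in WT and 41.4, 53.6 and 37.6 in Sgo1-/+. The groups did not overlap (log2 fold change -0.69, SE 0.24, unadjusted p = 0.0236 and adjusted p = 0.9999 by edgeR's quasi-likelihood test). The other synthases, Has1 and Has2, had 0.34 (SE 0.33) and -0.61 (SE 0.75) with groups that overlapped. Acan, the proteoglycan aggrecan, also had groups that did not overlap, at 192, 69.8 and 88.3 in WT against 55.4, 59.6 and 59.9 in Sgo1-/+ (log2 fold change -1, SE 0.39, unadjusted p = 0.0389 and adjusted p = 0.9999 by edgeR's quasi-likelihood test). Its value moved to -0.44 without WT replicate 1. Cd44, the main cell surface receptor for hyaluronan, had -0.31 (SE 0.51), and the hyaluronidases Hyal1 and Hyal2 had 0.30 (SE 0.35) and 0.24 (SE 0.20).

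Genes for what these receptors bind, and for the breakdown of haem taken up through Cd163, gave 5 positive and 9 negative values among 14 tested, with a median of -0.03. The groups of all 14 overlapped, and an unadjusted p under 0.05 was found for 0 of them with edgeR's quasi-likelihood test. Hmox1, haem oxygenase, had -0.41 (SE 0.33), Sparc, a matrix protein bound by stabilin-1, -0.35 (SE 0.50), and Hp, haptoglobin, -0.82 (SE 0.93). Among 6 tested partners of F13a1 and Pf4 in clotting and platelets, 3 values were positive and 3 negative. Thbs1, thrombospondin-1, had -1.15 (SE 0.45, unadjusted p = 0.0391 and adjusted p = 0.9999 by edgeR's quasi-likelihood test) with groups that overlapped, 56.4, 102 and 45.7 in WT against 46.6, 18.2 and 26.6 in Sgo1-/+. Of the family of Ms4a7, 11 further genes were in the table and 4 were tested, all with negative values between -2.99 and -0.16. With the filter off, as for Ms4a7, the sparse Ms4a1 (2.03, SE 1.36) and Ms4a4b (0.83, SE 0.86) had positive values.

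Growth factors, receptors and transcription factors of macrophages gave 11 positive and 7 negative values among 18 tested, with a median of 0.06. Nr4a1, an early response transcription factor that neurons also make, had 276, 700 and 278 in WT and 779, 1373 and 831 in Sgo1-/+. The groups did not overlap, with a log2 fold change of 1.25 (SE 0.42, unadjusted p = 0.0209 and adjusted p = 0.9999 by edgeR's quasi-likelihood test). Csf1r, the receptor on which microglia and border macrophages depend, had 819, 1183 and 1056 in WT and 1365, 1288 and 1317 in Sgo1-/+, also without overlap (log2 fold change 0.38, SE 0.15, unadjusted p = 0.0384 and adjusted p = 0.9999 by edgeR's quasi-likelihood test). Csf2ra, a receptor chain for granulocyte-macrophage colony-stimulating factor, was the third gene with all Sgo1-/+ libraries above all WT libraries (0.41, SE 0.18). Maf (-0.50, SE 0.20) was the 1 gene with all below. These 3 and 1 of the 18 stand beside 3.28% and 3.57% of all tested genes. Csf1r and Maf are also counted in lists below. The ligands of Csf1r, Csf1 and Il34, had 0.07 (SE 0.20) and 0.33 (SE 0.34).

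Markers of the cell types that could hold these transcripts were compared in the same fit. Of 12 tested further genes of border macrophages, 1 was positive and 11 were negative, with a median of -0.32. Without Sgo1-/+ replicate 2 the split was 5 positive and 7 negative. With single libraries left out, the median lay between -0.40 (without Sgo1-/+ replicate 1) and -0.16 (without WT replicate 2). Maf, a transcription factor of these cells, was the single one without overlap, at 619, 444 and 375 in WT and 318, 337 and 362 in Sgo1-/+ (log2 fold change -0.50, SE 0.20, unadjusted p = 0.0376 and adjusted p = 0.9999 by edgeR's quasi-likelihood test). The value of Maf moved to -0.28 without WT replicate 1 and to -0.65 without WT replicate 3. The more selective markers were sparse. Folr2 stood between 4.09 and 11.5 normalized counts, Siglec1 between 9.73 and 21.8 and Clec10a between 4.05 and 16.2, while Clec4n, Ccl24, Cd209b and Aoah were at 0 in at least 1 library. Ccl8, a chemokine too sparse to pass the filter, had 8.06, 20.9 and 4.06 in WT and 3.97, 0 and 0 in Sgo1-/+.

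Microglia markers had the opposite sign. Of 18 tested, 17 were positive and 1, Sall1 (-0.65, SE 0.28), was negative, with a median of 0.22 that lay between 0.13 and 0.32 when single libraries were left out. The groups of 3 of the 18 did not overlap, all higher in Sgo1-/+, beside 3.28% of all tested genes. Among them were Olfml3 and Csf1r, with log2 fold changes of 0.18 and 0.38. The summed level of the 18 markers was 8123 to 9309 in WT and 9124 to 10990 in Sgo1-/+. An adjusted p under 0.05 was found for 0 of them with edgeR's quasi-likelihood test, and 1 had an unadjusted p under 0.05.

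Meningeal fibroblasts lie beside border macrophages in the membranes that cover the brain. Their genes were lower in Sgo1-/+ by all 14 tested values, with a median of -0.63. The groups of 3 of the 14 did not overlap, beside 3.57% of all tested genes lower without overlap. Slc22a6 (-1.11, SE 0.30, unadjusted p = 0.00831 and adjusted p = 0.9999 by edgeR's quasi-likelihood test), Fbln1 (-0.78, SE 0.23, unadjusted p = 0.0127, adjusted p = 0.9999) and Aldh1a2 (-0.88, SE 0.40) did not overlap. The sum over the list was 3530, 3322 and 2414 in WT and 2478, 899 and 3061 in Sgo1-/+, so the lowest library was Sgo1-/+ replicate 2, and without it the median was -0.35. None of the 15 listed genes was at 0 in all libraries. The sign was that of F13a1, Cbr2, Mrc2 and most border macrophage genes and not that of Stab2. Whether meninges were kept in the dissection is not stated, and their part in these values was not tested.

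Cell types in which stabilin-2 is best known had values of both signs. Of 13 genes of sinusoidal and lymphatic endothelium, 6 were tested, 4 with positive and 2 with negative values and a median of 0.05. The sinusoidal markers Oit3, Clec4g and Dnase1l3 stood at no more than 4.06 normalized counts in any library, and Gata4 was at 0 in all 6. Of the genes that passed, Reln and Prox1 are also made by neurons and glia. Brain endothelium had 11 positive and 5 negative values and a median of 0.12, which turned to -0.10 without Sgo1-/+ replicate 1. There Flt1 (0.12, SE 0.09) was higher and Slco1a4 (-0.20, SE 0.10) lower in Sgo1-/+ without overlap. Mural cells of the vessel wall had 7 positive and 5 negative values with a median of 0.14.

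Markers of tissue borders and of neighbouring regions varied between the libraries. The study's methods leave out olfactory bulb, cerebellum and medulla, but genes of hindbrain and olfactory bulb were counted in these libraries. Choroid plexus genes summed to 22020, 7977 and 707 in WT and 1365, 431 and 25340 in Sgo1-/+, so WT replicate 1 and Sgo1-/+ replicate 3 were high. Hindbrain genes summed to 13650 in WT replicate 1 and to no more than 377 in any other library, and Slc6a5, a glycine transporter of that region, stood at 2653 in that library and at most 40.6 elsewhere. Olfactory bulb genes had negative values for 10 of 10, with a median of -1.60, and AI848285 did not overlap (-1.96, SE 0.47). The sums over the olfactory bulb genes were 1213, 2786 and 2817 in WT and 1827, 606 and 476 in Sgo1-/+. The part of these tissues in the values of the 9 genes was not tested.

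**Figure D4:**
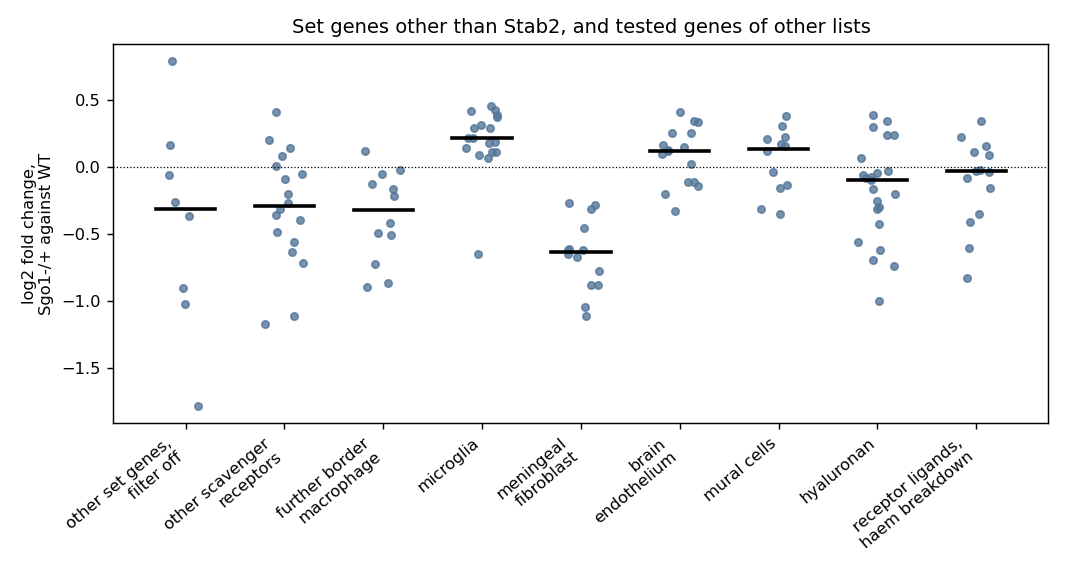
Log2 fold change of Sgo1-/+ against WT (y axis) for the 8 genes other than Stab2, with Pf4 and Ms4a7 fitted with the filter on low counts off, and for the tested genes of 8 other lists; each point is 1 gene, spread sideways at random, and the line is the median. The median was -0.32 for the 8 genes, -0.29 for other scavenger receptors, -0.32 for further border macrophage genes, 0.22 for microglia and -0.63 for meningeal fibroblasts. With the filter off, the medians were -0.23 for other scavenger receptors and -0.49 for further border macrophage genes.

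The genes whose profile over the 6 libraries was most like that of Stab2 were not of this set. Likeness was measured as the root mean square difference of log2 values centred on each gene's mean. Among the closest of all tested genes were Gm10076 (0.17), Dusp6 (0.22), Rpe65 (0.24) and Slc26a10 (0.24). Dusp6, a phosphatase that acts on ERK kinases, had 311, 450 and 447 in WT and 607, 797 and 757 in Sgo1-/+. Of the set, Stab1 came nearest to Stab2, at rank 7480, with Cd163 at 12447, Mrc1 at 13773 and F13a1, Lyve1 and Cbr2 at 15788, 15877 and 16023. The closest genes to Mrc1 were Samd9l (0.08), Dna2 (0.10), Ranbp3l (0.10), Arhgap30 (0.10) and Mlf1ip (0.10), with Stab1 at rank 547 and F13a1 at 2273. Closeness to Stab2 includes the separation it was picked for, so these ranks describe the libraries and were not tested.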

How the data were processed

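Cerebrum RNA of 3 WT and 3 Sgo1-/+ mice was sequenced in pairs on a MiSeq from TruSeq V2 libraries. The authors aligned the reads to mm10 with Strand NGS 2.1 (the submitters' processing notes name BWA and edgeR) and deposited an estimated count per gene and library, not normalized. The authors also deposited log2 values, normalized by DESeq and set to each gene's median, and columns of their own comparison (log2 fold change of WT minus Sgo1-/+, signed fold change, ratio and direction); neither was used. The annotation and strand used in counting are not given in the sources used here.

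Columns were matched to samples by the number in their names and in the sample titles. Estimated counts were rounded and fitted with edgeR 4.0.16 (R 4.3.3; TMM, filterByExpr with a minimum count of 10, 16337 genes, quasi-likelihood test without covariates); p-values were adjusted by Benjamini-Hochberg, with a threshold of 0.05. The SE is the size of the log2 fold change divided by the square root of F. To normalize, each estimated count was scaled by its TMM library size to the mean of the 6 sizes. The biological coefficient of variation was 25.9%. At this depth a count of 0 allows up to 3 counts, or up to 3 pair counts if both reads of each pair were counted. For single genes an exact two-sided permutation over the 20 groupings was used, which can give no p below 0.1. Exon lengths and overlaps came from GENCODE M21, which holds 36308 of the 38087 gene IDs, and promoter sequences from RefSeq (GRCm38.p6). Nothing in the labels beyond 1 library per mouse describes the replicates.

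The 9 genes and 17 further gene lists (other scavenger receptors, border macrophages, microglia, blood leukocytes, red cells, sinusoidal and lymphatic endothelium, brain endothelium, mural cells, meningeal fibroblasts, choroid plexus, hyaluronan, receptor ligands, macrophage growth factors, partners of F13a1 and Pf4, the Ms4a family, hindbrain and olfactory bulb) were chosen with earlier results of these data known. Named are the 9 genes, list genes whose groups did not overlap or whose unadjusted p was under 0.05, the abundant and defining genes of a list, the 5 profiles closest to Stab2 and to Mrc1, Sgo1, and genes overlapping a set gene. Receptors and ligands named beyond this, such as Cd36 and Hmox1, were chosen after their values were seen, for their roles. Some genes that this rule names are not reported here.

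As alternatives, the replicate number was fitted as a block, sex was added as a covariate, each library was left out, the filter was dropped or raised to 10 counts per library, TMM was replaced by DESeq2 size factors or by library size alone, and the test by the likelihood ratio test of edgeR, the Wald test of DESeq2 1.42.0 or limma 3.58.1 (log2, pseudocount 1). List medians under each alternative and counting intervals on pair counts (the estimated count divided by 2) were added after seeing the data. The scripts were tested on simulated data.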

Additional observations from a re-analysis of the deposited data

How the results depend on the processing

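For the 9 genes, 126 log2 fold changes under the alternatives kept their direction and, for the genes other than the untested Stab2, their side of the threshold, and 4 reversed: Stab1 to 0.085 without WT replicate 2 (lowest -0.20 with single libraries left out), Cd163 to -0.23 without WT replicate 1 and -0.12 without Sgo1-/+ replicate 1 (highest 0.43), and Pf4 to 0.13 without WT replicate 1 (lowest -0.64). For other named genes 298 values kept both. These genes, like Stab2, were picked for differences in the same libraries, so a kept direction was largely fixed in advance. In the main fit the smallest adjusted p was 0.9999 with edgeR's quasi-likelihood test, so a kept side of the threshold says little. The brain endothelium median reversed to -0.10 without Sgo1-/+ replicate 1 (highest 0.22). Stab2 was higher and Cbr2 lower in Sgo1-/+ without overlap under TMM, DESeq2 size factors and library size alone.

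Genes with an adjusted p under 0.05 numbered 3 with DESeq2's Wald test, 2 with edgeR's likelihood ratio test, 0 with limma and 0 to 1 with single libraries left out (1 without Sgo1-/+ replicate 2). Genes with an unadjusted p under 0.05 numbered 563 with no filter, against 333, and 240 to 1040 with single libraries left out (626 without WT replicate 1, 1040 without WT replicate 3). Genes without overlap then numbered 2128 to 3913, where fewer libraries have to be apart. Library size alone moved the split to 353 higher and 822 lower without overlap, from 536 and 583, and to 98 and 276 with an unadjusted p under 0.05, from 132 and 201. The cause of the other shifts was not tested.

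With the replicate number as a block, edgeR's quasi-likelihood test called 0 genes and 280 had an unadjusted p under 0.05 (125 higher, 155 lower). The deviations of same-numbered libraries correlated at -0.15, 0.03 and -0.20 across genes. Those of differently numbered libraries lay between -0.25 and 0.30. With so few libraries these values cannot tell whether the numbers pair the mice. With sex as a covariate 0 genes were called and 332 had an unadjusted p under 0.05. Depth limits Stab2, Pf4, Cbr2 and Ms4a7, which had at most 25 estimated counts in any library.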
